A study of Mus musculus with 48 samples.

Results

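The genes described here are 8 secreted factors made by stromal cells: the pentraxin gene Ptx3, the CC chemokine genes Ccl2 and Ccl7, the CXC chemokine genes Cxcl1 and Cxcl5, the cytokine genes Il6 and Csf1, and Timp1, which encodes an inhibitor of metalloproteinases. They were taken by gene symbol from a table of raw counts of 36935 genes, and all 8 were found in it. The set was chosen by values measured in these libraries, because Ptx3 and Ccl7 read high in the day 15 double knockout, so the day 15 levels of the double knockout are given as a description with no test. Counts came from mouse E14 embryonic stem cells and 3 knockout lines carried through neuronal differentiation, with genotypes labelled KAT6A-/-; KAT6B-/- dKO (the double knockout), KAT6B-/- KO, KAT6A-/- KO and E14 wildtype. KAT6A and KAT6B are lysine acetyltransferases that modify histone H3. Each genotype was sampled at days 0, 2, 6 and 15 with 3 libraries a group, from 3 independent differentiation experiments, which gave 16 groups and 48 libraries. In every genotype, day 0 cells were stem cells kept in serum with LIF, and day 2 cells were embryoid bodies grown without LIF. Day 6 embryoid bodies had been given 10 µM all-trans retinoic acid since day 4, and day 15 cells had been dissociated at day 8 and plated on poly-D-lysine and laminin in medium with N2 and then B27 supplement. Neither the kind of edit nor the number of clones behind a knockout line is stated in the sources used here.

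PTX3 is a long pentraxin, a secreted pattern recognition protein that binds complement components and helps to hold together hyaluronan-rich matrix, and fibroblasts, endothelial cells and myeloid cells make it under inflammatory stimulation. CCL2 and CCL7 draw monocytes through the receptor CCR2, whereas CXCL1 and CXCL5 draw neutrophils through CXCR2. IL-6 signals through the shared receptor chain gp130, CSF1 maintains macrophages and microglia through CSF1R, and TIMP1 binds matrix metalloproteinases and blocks them. Several of these genes are classical targets of the transcription factor families NF-kappaB and C/EBP in fibroblasts.

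Promoters of 5 of the 8 genes (Ptx3, Cxcl1, Il6, Csf1 and Timp1) were in the RefSeq table for GRCm38.p6, and those of 4 are shown because they hold letters of an NF-kappaB type decamer. Each runs 5′ to 3′ on the strand of its gene from base -250 to base 10, counted from the transcript start, and capitals mark motif matches on either strand.
Ptx3 promoter, chr3:66219637-66219896 (plus strand): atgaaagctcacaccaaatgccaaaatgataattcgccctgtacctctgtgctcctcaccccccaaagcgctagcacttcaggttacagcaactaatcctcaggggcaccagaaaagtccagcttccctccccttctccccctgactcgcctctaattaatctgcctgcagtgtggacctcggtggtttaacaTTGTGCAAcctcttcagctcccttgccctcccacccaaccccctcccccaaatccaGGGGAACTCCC
Cxcl1 promoter, chr5:90890995-90891254 (plus strand): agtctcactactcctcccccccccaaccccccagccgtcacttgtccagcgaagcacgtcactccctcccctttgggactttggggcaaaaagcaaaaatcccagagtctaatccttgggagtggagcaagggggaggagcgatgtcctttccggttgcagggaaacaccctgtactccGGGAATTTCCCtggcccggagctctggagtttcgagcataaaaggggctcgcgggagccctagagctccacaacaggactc
Il6 promoter, chr5:30012864-30013123 (plus strand): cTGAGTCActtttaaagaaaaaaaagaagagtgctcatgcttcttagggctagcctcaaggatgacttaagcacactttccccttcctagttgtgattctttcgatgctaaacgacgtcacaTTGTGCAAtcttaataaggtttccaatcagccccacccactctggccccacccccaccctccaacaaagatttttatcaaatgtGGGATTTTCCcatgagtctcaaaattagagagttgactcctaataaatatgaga
Csf1 promoter, chr3:107760460-107760719 (minus strand): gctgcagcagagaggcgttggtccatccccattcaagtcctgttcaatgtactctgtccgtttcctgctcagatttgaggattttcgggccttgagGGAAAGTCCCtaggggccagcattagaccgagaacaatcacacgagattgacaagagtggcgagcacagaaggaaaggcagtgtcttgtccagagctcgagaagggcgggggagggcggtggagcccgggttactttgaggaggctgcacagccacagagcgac
Both strands of the window of 250 bases before to 50 after the start were searched for the NF-kappaB decamer, AP-1 (TGANTCA), C/EBP (TTGCNNAA) and a TATA box (TATAAA). Ptx3 held 2 overlapping NF-kappaB matches at its start (bases -1 to 9 and 1 to 10) and a C/EBP match at bases -57 to -50. Cxcl1 held 2 overlapping NF-kappaB matches, at bases -71 to -62 and, on the other strand, -70 to -61. Il6 held NF-kappaB letters at bases -44 to -35, C/EBP letters at -128 to -121 and AP-1 letters at -249 to -243, and Csf1 held NF-kappaB letters at bases -154 to -145. The Timp1 window held no match to any of the 4 motifs. Of 32817 promoters in the table, 8.46% held the NF-kappaB decamer, 7.81% AP-1, 10.8% C/EBP and 13.6% the TATA box. A match is a description of letters only.

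On GRCm39, the build of the counts, Ptx3 (ENSMUSG00000027832) lies on chromosome 3 from 66127331 to 66133226 on the plus strand, and Csf1 (ENSMUSG00000014599) on chromosome 3 from 107648364 to 107667785 on the minus strand. Ccl2 (ENSMUSG00000035385, 81926397 to 81928279) and Ccl7 (ENSMUSG00000035373, 81936538 to 81938351) are neighbours on chromosome 11, and Cxcl5 (ENSMUSG00000029371, 90907219 to 90909483) and Cxcl1 (ENSMUSG00000029380, 91039100 to 91040974) lie in one chemokine cluster on chromosome 5, all on the plus strand. Il6 (ENSMUSG00000025746, 30218112 to 30224979) is also on chromosome 5 and Timp1 (ENSMUSG00000001131, 20736405 to 20740974) on chromosome X, both on the plus strand. Ptx3 lies within Veph1, Ccl2 within Gm17268 and Timp1 within Syn1, each on the opposite strand. The sources used here do not state the strand setting of the counting, so how reads of each pair were divided is uncertain. Veph1 was at 1.35 CPM (counts scaled to library size) or less in every library, and Gm17268 had no count in any. Syn1, a synaptic vesicle gene, averaged 36.2 ± 25.8 CPM in the day 15 double knockout and 90.6 ± 28.3 CPM in day 15 E14 (SD, n = 3), a difference opposite in direction to that of Timp1.

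Total gene counts ran from 22.5 to 72.28 M per library. Levels are CPM scaled by TMM over all 48 libraries. Kat6a RNA was at 60.1% to 75.6% of the E14 mean in the double knockout and at 50.0% to 67.5% in the KAT6A knockout over the 4 days. Kat6b RNA was at 65.7% to 94.8% in the double knockout and at 59.9% to 96.5% in the KAT6B knockout. Such levels, summed over all exons, leave the labels unchecked. In the day 15 libraries labelled KAT6B knockout replicate 1 and double knockout replicate 3, Kat6b was at 126 and 107 CPM. Both exceeded all 3 E14 libraries of that day (90.2, 93.5 and 105 CPM). On the principal components of day 15, KAT6B knockout replicates 1 and 2, double knockout replicate 3 and KAT6A knockout replicate 1 stood apart from their groups. Results that turn on 1 library are also given without it.

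In E14 cells Ptx3, Ccl2, Ccl7 and Csf1, 4 of the 8 genes, fell between days 0 and 2 and stood above their stem cell level at day 15. Timp1 fell at day 2 and was not called at day 15, Cxcl1 was called only at day 15, and Cxcl5 was called at neither day. At day 2 against day 0, 5 of the 7 genes tested fell and 0 rose by edgeR (adjusted p under 0.05), where 12.1% of 20510 genes tested fell and 9.50% rose. At day 6, 4 fell and 0 rose, against 24.2% and 25.8% of genes, and at day 15, 5 rose and 0 fell, against 36.5% higher and 33.2% lower. Il6 did not pass the filter on low counts here, and it passed only in the fit of day 15 libraries. The genes' median log2 change was -2.59, -1.15 and 1.68 at the 3 days, beside -0.02, 0.05 and 0.09 over all genes tested. In bulk RNA, fewer cells of a type and less RNA per cell cannot be told apart. The summed level of 18 mesenchyme and fibroblast markers was 1908 to 2656 CPM at day 0, 1197 to 1727 at day 2, 1664 to 2425 at day 6 and 9346 to 12800 CPM at day 15 in E14, and its part in these changes was not tested.

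Ptx3 was at 0.195, 0.577 and 1.34 CPM in the 3 E14 libraries of day 0, at 0.0877, 0.0825 and 0.0618 CPM at day 2, at 1.58, 0.771 and 1.76 CPM at day 6 and at 1.68, 1.55 and 2.13 CPM at day 15. The day 2 libraries lay below every other E14 library and the day 15 libraries above those of day 0. Ptx3 fell at day 2 by 3.21 on the log2 scale (SE 0.67, adjusted p = 0.00536) and rose at day 15 by 1.34 ± 0.52 (SE, adjusted p = 0.0328). The day 15 call was lost without day 0 replicate 1 or 2 or day 15 replicate 3 (adjusted p = 0.0954, 0.0994 and 0.0860). Without day 0 replicate 3 the log2 changes were -2.38 at day 2 and 2.17 at day 15.

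Of the monocyte chemokines, Ccl2 was at 0.244, 1.07 and 1.37 CPM at day 0, 0.176, 0.138 and 0.144 CPM at day 2, 0.0985, 0.337 and 0.111 CPM at day 6 and 2.38, 9.98 and 7.73 CPM at day 15 in E14. It fell by 2.59 and 2.29 on the log2 scale at days 2 and 6 (adjusted p = 0.0200 and 0.0130) and rose by 2.90 ± 0.59 at day 15 (adjusted p = 0.000590). The day 2 call was lost without day 0 replicate 3 or any of the day 2 libraries (adjusted p = 0.0905, 0.0613, 0.0749 and 0.0601), and the day 6 call without day 0 replicate 3 or day 6 replicate 3 (adjusted p = 0.0607 and 0.0620), and the day 6 change was -3.00 without day 6 replicate 2. Ccl7 had no count in the 3 day 2 libraries and 29 counts over those of day 0, at least 12.7-fold lower with a floor of 3 counts over the group (adjusted p = 0.00378). With Ccl7 at that bound, the median of the genes at day 2 was still -2.59. Ccl7 was at 0.457, 2.19 and 1.47 CPM at day 15, 2.12 ± 0.61 higher on the log2 scale than at day 0 (adjusted p = 0.00810), and the call was lost without day 15 replicate 2 (adjusted p = 0.0517).

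The neutrophil chemokines were low throughout in E14. Cxcl1 was at 0.0487, 0.0865 and 0.243 CPM at day 0, 0, 0.0825 and 0 CPM at day 2, 0, 0.169 and 0.148 CPM at day 6 and 0.577, 0.875 and 1.14 CPM at day 15. It rose at day 15 by 2.72 ± 0.87 on the log2 scale (adjusted p = 0.0122, and 0.0531 without day 0 replicate 2), or by 3.59 without day 0 replicate 3. Cxcl5 took another course: it averaged 0.367 ± 0.107 CPM at day 0, 0.301 ± 0.203 at day 2, 0.791 ± 0.433 at day 6 and 0.141 ± 0.171 CPM at day 15 (SD, n = 3), with no change past the threshold. Il6 had 0, 1, 0 and 22 counts over the 3 libraries at the 4 days, and the day 0 total allows up to 0.0341 CPM.

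Csf1, the macrophage growth factor, was at 13.0, 17.0 and 31.1 CPM in E14 stem cells, 1.93, 1.71 and 2.57 CPM at day 2, 8.96, 8.48 and 9.84 CPM at day 6 and 46.9, 80.1 and 64.5 CPM at day 15. The libraries of the 4 days did not overlap. Csf1 fell by 3.31 and 1.15 on the log2 scale at days 2 and 6 (adjusted p = 4.54e-05 and 0.00399) and rose by 1.68 ± 0.28 at day 15 (adjusted p = 0.000105). Timp1 averaged 16.5 ± 1.23 CPM at day 0, 7.65 ± 1.34 at day 2, 5.72 ± 0.667 at day 6 and 18.1 ± 6.08 CPM at day 15. It fell by 1.12 and 1.51 on the log2 scale at days 2 and 6 (adjusted p = 0.00704 and 0.000239), and its day 15 change of 0.18 ± 0.24 did not pass the test (adjusted p = 0.535).

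**Figure D1:**
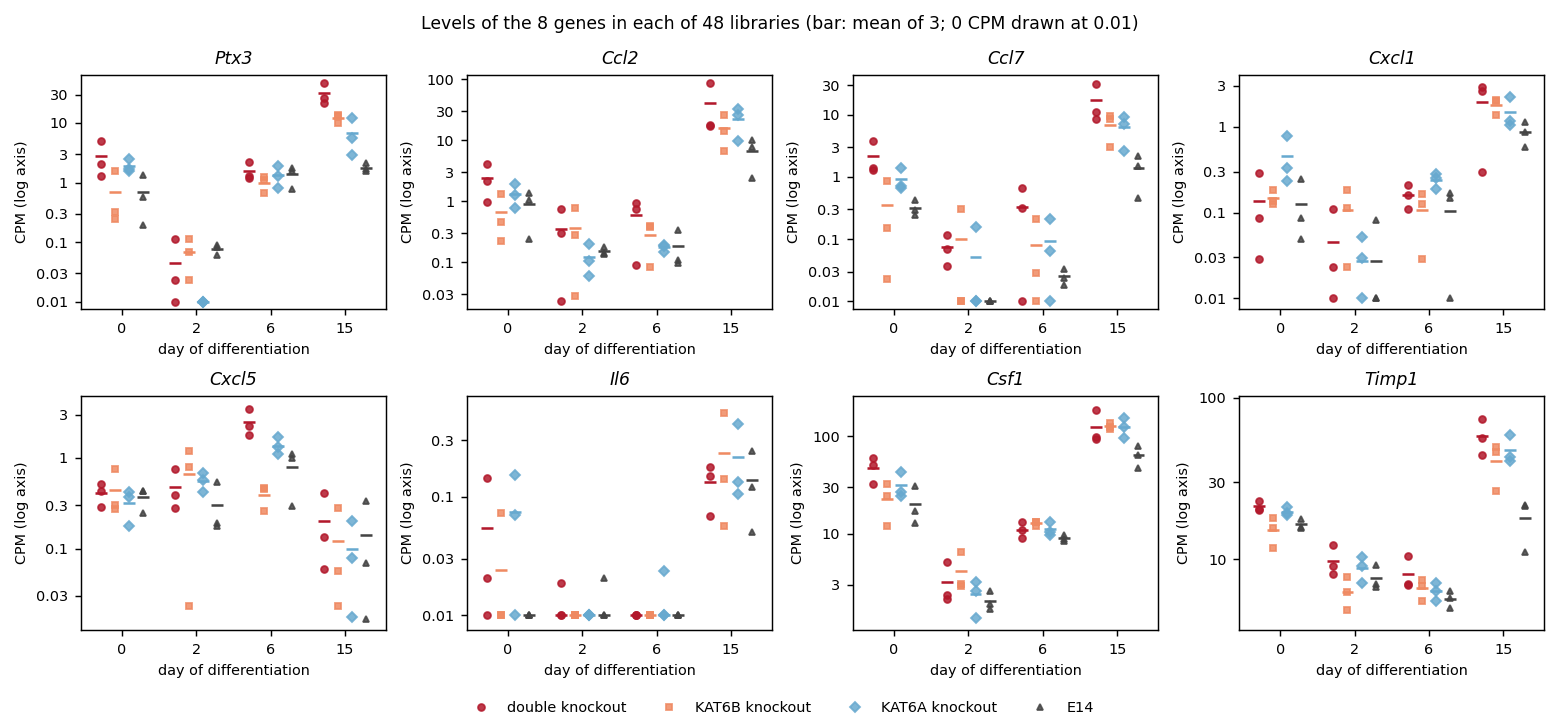
CPM of each gene on a log axis by day of differentiation, 3 libraries a group (points), with the mean as a bar and libraries at 0 drawn at 0.01 CPM. Ptx3, Ccl2, Ccl7, Cxcl1 and Csf1 stood highest at day 15, where the double knockout averaged 31.3 CPM of Ptx3 and E14 1.79 CPM, while Cxcl5 stood highest at day 6 in the double knockout (2.50 CPM).

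Other genes of the same pathways were followed over time in E14, where many genes of all kinds changed. At day 2, 0 of 21 genes of the NF-kappaB and C/EBP pathway rose and 6 fell, beside 9.50% higher and 12.1% lower over all genes tested. Socs3, a feedback inhibitor of cytokine signalling, was at 12.9 ± 2.01 CPM at day 2 and 141 ± 37.4 CPM at day 0 (SD, n = 3) and fell by 3.47 on the log2 scale. Bcl3, an NF-kappaB co-regulator, fell by 3.71, Icam1, an adhesion receptor, by 1.57 and Relb, an NF-kappaB subunit, by 1.01. The calls of Icam1 and Relb were lost in some fits without 1 library (adjusted p up to 0.0633 and 0.0672). At day 15, 8 of these 21 rose and 5 fell. Over all genes 36.5% rose and 33.2% fell at that day, which is the background of each list count that follows. Vcam1, another adhesion receptor, rose to 19.4 ± 5.36 CPM at day 15, against 0.0867 ± 0.0835 CPM at day 0. Bcl3 changed by -2.62 ± 0.27, Icam1 by -2.06 ± 0.40 and Tnfaip3, an inhibitor of NF-kappaB signalling, by 1.96 ± 0.27 on the log2 scale. Of 17 TIMPs and metalloproteinases tested 12 rose and 3 fell at day 15, among them Mmp12, Adamts5 and Timp3 upwards. Timp2, another TIMP, was at 233 ± 39.9 CPM at day 15 and 13.5 ± 1.60 CPM at day 0. Of 7 receptors of the factors tested 5 rose and 0 fell. Among them, Ackr1, a decoy receptor for chemokines, was at 11.4 ± 4.02 CPM at day 15 and 0.0812 ± 0.141 CPM at day 0, and Csf1r, the CSF1 receptor, at 3.07 ± 1.21 and 0.117 ± 0.136 CPM. Of 11 other chemokine ligands 4 rose and 3 fell, among them Ccl17, Cx3cl1 and Ccl27a upwards and Cxcl14 downwards. Of 14 cytokines of the IL-6 family and blood growth factors and their receptors 8 rose and 4 fell, among them Osmr, Il18 and Il1r1 upwards and Osm downwards. Of 8 pentraxins and PTX3 partners 4 rose and 1 fell, among them Nptx1, Fgf2 and Nptxr upwards.

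Before day 15 no difference of these genes between a knockout and E14 passed the edgeR test, fitted without the replicate number as a block. Of the genes tested (7 at day 0, 4 at day 2 and 6 at day 6), 0 were called by this fit in any genotype. The share of all genes called was 2.09%, 1.12% and 0.0682% for the double knockout at days 0, 2 and 6, 0.0106%, 0% and 0.0292% for the KAT6B knockout, and 0%, 0.0102% and 0% for the KAT6A knockout. At an unadjusted p under 0.05 there were 4, 0 and 2 genes in the double knockout, 0, 1 and 2 in the KAT6B knockout, and 0, 0 and 0 in the KAT6A knockout. The share of all genes at this unadjusted threshold was not counted. DESeq2 called 1, 0 and 1 in the double knockout (Ccl7 at day 0 and Cxcl5 at day 6), beside 1087, 644 and 243 genes in all. It called 0 of these genes in each of the others. Same-numbered libraries of the double knockout and E14 deviated together at day 6 (correlations between 0.165 and 0.517). With the replicate number as a block 0 of the 6 genes and 39 genes in all were called there, against 14 without it. At day 0 the same correlations were 0.133, 0.089 and 0.33. The block there called 2 of the 7 genes by edgeR, Ptx3 (adjusted p = 0.0237) and Ccl7 (adjusted p = 0.0477), and 606 genes in all, against 396 without it.

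In double knockout stem cells Csf1 was at 32.4, 50.3 and 60.3 CPM, all above E14 at 13.0, 17.0 and 31.1 CPM, a log2 change of 1.19 ± 0.35 (adjusted p = 0.0941). Ccl7 was at 1.31, 1.37 and 3.78 CPM in the double knockout and 0.244, 0.288 and 0.426 CPM in E14. Its log2 change was 2.69 ± 0.76 (adjusted p = 0.0839, 0.0477 with the replicate number as a block, and 0.00927 by DESeq2), or 2.02 without double knockout replicate 3. Ptx3 was at 1.28, 2.02 and 5.00 CPM in the double knockout, at 0.243, 0.317 and 1.56 CPM in the KAT6B knockout, at 1.69, 1.55 and 2.47 CPM in the KAT6A knockout and at 0.195, 0.577 and 1.34 CPM in E14. Ptx3 in the double knockout overlapped E14, whereas the KAT6A knockout did not. The log2 change of Ptx3 in the double knockout was 1.89 ± 0.68 (adjusted p = 0.158, and 0.0237 with the replicate number as a block). It was 1.16 without double knockout replicate 3 and 2.71 without E14 replicate 3. With all 3 knockout libraries above all 3 E14 libraries there were 3 of 7 genes in the double knockout (Ccl7, Csf1 and Timp1), 0 in the KAT6B knockout and 3 in the KAT6A knockout (Ptx3, Ccl7 and Timp1), where 10.9%, 8.17% and 8.53% of all genes tested did so. Markers of other cells also differed between the genotypes at day 0. The summed level of 18 mesenchyme markers was 2531 to 3631 CPM in the double knockout, 1844 to 2689 in the KAT6B knockout, 2761 to 3747 in the KAT6A knockout and 1908 to 2656 CPM in E14, with Lum under 1 CPM in all 4. The KAT6A knockout alone lay above E14 in this sum without overlap. Of 17 of these markers tested by edgeR, 5 were called higher and 0 lower in the double knockout, where 2.09% of all genes were called. In each single knockout 0 of the 17 were called. The sum of 11 trophoblast markers was 581 to 1004 CPM in the double knockout, 439 to 588 in the KAT6B knockout, 613 to 747 in the KAT6A knockout and 378 to 627 CPM in E14, with Elf5 and Prl3d1 under 1 CPM and overlap of each knockout with E14. Of 10 of these tested by edgeR, 3 were called higher and 0 lower in the double knockout, and 0 were called in each single knockout. The sum of 8 endothelial markers was 166 to 183 CPM in the double knockout, 150 to 174 in the KAT6B knockout, 147 to 166 in the KAT6A knockout and 121 to 133 CPM in E14, with Emcn and Erg under 1 CPM. All 3 knockouts lay above E14 in this sum. The median log2 change over 7 of these markers tested was 0.10, -0.02 and 0.06 in the double, KAT6B and KAT6A knockouts. By edgeR 1 was called higher in the double knockout and 0 in each single knockout. The sum of 14 macrophage and microglia markers was 20.4 to 26.1 CPM in the double knockout, 14.5 to 18.2 in the KAT6B knockout, 14.9 to 15.8 in the KAT6A knockout and 9.63 to 15.7 CPM in E14. In the same order of groups 8, 9, 11 and 11 of the 14 were under 1 CPM in every library, among them Ptprc, Adgre1, Aif1, Tyrobp and C1qa. Of 6 tested, 0 were called by edgeR in any knockout. In this sum the double knockout alone lay above E14 without overlap. Pluripotency markers, 10 genes, summed to 2785 to 3218 CPM in the double knockout, 2947 to 3020 in the KAT6B knockout, 3328 to 3568 in the KAT6A knockout and 3342 to 4228 CPM in E14. The 12 neuron markers summed to 277 to 337, 328 to 358, 382 to 402 and 403 to 441 CPM in the same order. The neuron sum was lower than in E14 without overlap in all 3 knockouts, and the pluripotency sum in the double and KAT6B knockouts. The median log2 change over the 12 neuron markers was -0.28, 0.24 and -0.13 in the double, KAT6B and KAT6A knockouts. In the KAT6B knockout this median was thus opposite in direction to the sum. By edgeR 1 neuron marker was called lower in the double knockout and 0 in each single knockout. Sums of 12 endoderm markers (73.8 to 99.4 CPM in the double knockout and 45.1 to 80.2 CPM in E14) and 9 astrocyte markers (273 to 398 and 314 to 381 CPM) overlapped. The part of these markers in the levels of the genes was not tested.

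Around these genes, 3 of 16 TIMPs and metalloproteinases rose in double knockout stem cells and 0 fell, where 2.09% of all genes tested were called. Timp3, an inhibitor bound to matrix, was at 36.0 ± 6.62 CPM in the double knockout and 17.4 ± 2.28 CPM in E14 (1.01 ± 0.15 on the log2 scale, adjusted p = 0.00659), and the gelatinase gene Mmp9 at 15.2 ± 2.78 and 6.03 ± 1.18 CPM. The aggrecanase gene Adamts5 was at 6.16 ± 1.23 CPM in the double knockout and 2.06 ± 0.226 CPM in E14. Rel, an NF-kappaB subunit, rose to 14.9 ± 0.794 CPM in the double knockout, against 7.83 ± 1.98 CPM in E14 (adjusted p = 0.0287), 1 of 20 genes of its pathway. Mmp9 and Timp3 were called whichever library of these groups was left out. With 1 library left out, Rel and Adamts5 were called only when it was E14 replicate 2 (adjusted p up to 0.0804 and 0.141 in the others). At day 2, Osm, an IL-6 family cytokine, was at 4.11 ± 1.07 CPM in the double knockout and 0.757 ± 0.233 CPM in E14 (2.40 ± 0.52, adjusted p = 0.0387), and Cxcl12, a stromal chemokine, was at 17.1 ± 2.70 and 30.9 ± 3.83 CPM (-0.89 ± 0.20, adjusted p = 0.0466). Leaving out any 1 library of these groups ended both calls (adjusted p between 0.0789 and 0.200 for Osm and between 0.0696 and 0.236 for Cxcl12). No gene of the pathway lists changed in the double knockout at day 6 by edgeR.

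At day 2 all 3 knockout libraries lay above all 3 E14 libraries for 0 of 4 genes tested in the double knockout, 1 in the KAT6B knockout (Csf1) and 0 in the KAT6A knockout, beside 12.9%, 4.95% and 9.96% of all genes. Ptx3 was not tested at day 2, with 7 counts over the double knockout libraries, 8 in the KAT6B knockout, 0 in the KAT6A knockout, which allows up to 0.0267 CPM, and 9 in E14. At day 6 they did so for 2 of 6 in the double knockout (Cxcl5 and Timp1), 1 in the KAT6B knockout (Csf1) and 1 in the KAT6A knockout (Cxcl5), beside 7.00%, 8.06% and 6.55%. Cxcl5 at day 6 was at 1.80, 3.46 and 2.25 CPM in the double knockout, 0.257, 0.461 and 0.451 CPM in the KAT6B knockout, 1.30, 1.68 and 1.10 CPM in the KAT6A knockout, and 0.296, 0.988 and 1.09 CPM in E14. Its 3 double knockout libraries lay above all others of that day, and the log2 change over E14 was 1.59 ± 0.43 (adjusted p = 0.274, and 0.0258 by DESeq2). The KAT6B knockout was on the other side of E14, at -1.02 ± 0.45 (adjusted p = 0.365). Ptx3 at day 6 averaged 1.55 ± 0.559 CPM in the double knockout, 0.986 ± 0.293 in the KAT6B knockout, 1.34 ± 0.551 in the KAT6A knockout and 1.37 ± 0.525 CPM in E14.

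At day 15 the double knockout had the highest mean level of Ptx3, Ccl2, Ccl7, Cxcl1 and Timp1. Ptx3 was at 21.5, 46.5 and 25.9 CPM in the double knockout, 13.1, 13.5 and 9.92 CPM in the KAT6B knockout, 12.0, 2.92 and 5.53 CPM in the KAT6A knockout and 1.68, 1.55 and 2.13 CPM in E14. All knockout libraries lay above all E14 libraries, and those of the double knockout above those of both single knockouts. The log2 ratio was 4.11 ± 0.51 (SE) for the double knockout over E14, 1.36 ± 0.45 over the KAT6B knockout and 2.21 ± 0.46 over the KAT6A knockout.

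Ccl7 was at 11.1, 31.6 and 8.60 CPM in the double knockout, 2.98, 8.49 and 9.39 CPM in the KAT6B knockout, 9.10, 2.56 and 7.15 CPM in the KAT6A knockout and 0.457, 2.19 and 1.47 CPM in E14. All knockout libraries again lay above all E14 libraries, and the double knockout overlapped both single knockouts. The log2 ratio of the double knockout to E14 was 3.62 ± 0.77, and 2.82 without double knockout replicate 2. Ccl2, its neighbour, was at 18.0, 85.3 and 16.9 CPM in the double knockout, 6.79, 14.3 and 25.7 CPM in the KAT6B knockout, 32.0, 9.78 and 26.2 CPM in the KAT6A knockout and 2.38, 9.98 and 7.73 CPM in E14. The double knockout lay above E14, with replicate 2 above every other library, while each single knockout overlapped E14. The log2 ratio of the double knockout to E14 was 2.57 ± 0.80, and 1.37 without that replicate.

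Cxcl1 was at 0.295, 2.91 and 2.61 CPM in the double knockout, 2.08, 1.98 and 1.37 CPM in the KAT6B knockout, 1.18, 1.05 and 2.24 CPM in the KAT6A knockout and 0.577, 0.875 and 1.14 CPM in E14. Double knockout replicate 1 was the lowest library of the day, and only the KAT6B knockout lay above E14 in all 3 libraries. Cxcl5 had 30, 14, 13 and 19 counts over the 3 libraries of the double knockout, the KAT6B knockout, the KAT6A knockout and E14. Il6 had 22, 30, 33 and 22 counts in the same order of groups, so neither gene can be ordered between genotypes at this depth. The log2 ratios of the double knockout to E14, 0.53 and -0.07, changed sign when single libraries were left out, with -0.47 for Cxcl5 without double knockout replicate 1 and 2.14 without E14 replicate 1, and 0.65 for Il6 without E14 replicate 3.

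Csf1 was at 97.6, 185 and 92.5 CPM in the double knockout, 137, 119 and 124 CPM in the KAT6B knockout, 154, 125 and 96.8 CPM in the KAT6A knockout and 46.9, 80.1 and 64.5 CPM in E14. The 3 knockouts overlapped one another and none overlapped E14, with log2 ratios to E14 of 0.96 ± 0.29 in the double knockout, 0.98 ± 0.29 in the KAT6B knockout and 0.96 ± 0.29 in the KAT6A knockout. Timp1 was at 73.8, 56.8 and 44.4 CPM in the double knockout, 26.5, 49.5 and 46.2 CPM in the KAT6B knockout, 59.0, 40.9 and 43.1 CPM in the KAT6A knockout and 11.1, 21.6 and 21.8 CPM in E14. The knockouts overlapped one another and lay above E14, with a log2 ratio of 1.67 ± 0.31 for the double knockout. All 3 libraries lay above E14 for 5 of 8 genes in the double knockout (Ptx3, Ccl2, Ccl7, Csf1 and Timp1), 5 in the KAT6B knockout (Ptx3, Ccl7, Cxcl1, Csf1 and Timp1) and 4 in the KAT6A knockout (Ptx3, Ccl7, Csf1 and Timp1), beside 22.0%, 14.2% and 13.7% of all genes tested. The count of the double knockout follows in part from how the set was chosen, and the 3 comparisons share the E14 libraries.

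**Figure D2:**
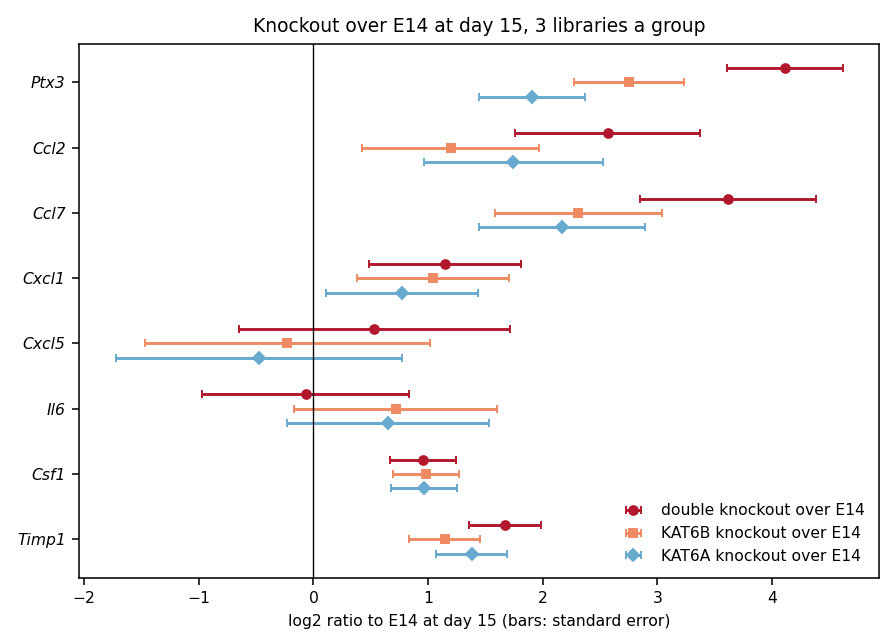
Log2 ratio to E14 at day 15 (x axis) of each gene in the double knockout, the KAT6B knockout and the KAT6A knockout, with standard errors, 3 libraries a group. The ratios of Ptx3 in the 3 knockouts were 4.11, 2.75 and 1.91, while those of Csf1 lay between 0.96 and 0.98, and the double knockout values are a description.

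In the single knockouts at day 15, which the choice of genes did not name, 0 of 8 genes were called by edgeR, where 0.0742% of genes were called in the KAT6B knockout and 0% in the KAT6A knockout. At an unadjusted p under 0.05, 4 genes were higher in the KAT6B knockout and 5 in the KAT6A knockout. The share of all genes at this unadjusted threshold was not counted for any comparison of this paragraph. DESeq2 called 4 (Ptx3, Ccl7, Csf1 and Timp1) and 2 (Ptx3 and Timp1), beside 1720 and 280 genes in all. In the KAT6B knockout the log2 change over E14 was 2.75 ± 0.48 for Ptx3 (adjusted p = 0.0513), 2.31 ± 0.73 for Ccl7 (adjusted p = 0.139), 0.98 ± 0.29 for Csf1 (adjusted p = 0.121) and 1.15 ± 0.31 for Timp1 (adjusted p = 0.101). Without KAT6B knockout replicate 1, a library whose Kat6b level exceeded that of E14, Ptx3 (2.67, adjusted p = 0.0278) and Timp1 (1.37, adjusted p = 0.0327) were called. That fit called 1949 genes in all, against 15 with the library kept. In the KAT6A knockout the log2 change was 1.91 ± 0.47 for Ptx3 (1.24 without its replicate 1), 1.74 ± 0.78 for Ccl2, 2.17 ± 0.73 for Ccl7, 0.96 ± 0.29 for Csf1 and 1.38 ± 0.31 for Timp1 (adjusted p between 0.287 and 0.437). The KAT6B knockout against the KAT6A knockout gave 0 of 8 genes called and 0 at an unadjusted p under 0.05, by DESeq2 also 0 called, where 0% of all genes were called by edgeR. The change of the single knockout effect between days 0 and 15 called 0 of 7 genes for the KAT6B knockout (0.0436% of all genes) and 0 of 7 for the KAT6A knockout (0%), and DESeq2 called 0 in each. At an unadjusted p under 0.05 there were 2 for the KAT6B knockout, Ptx3 (2.68 ± 0.96, adjusted p = 0.248, and 1.90 to 4.02 with single libraries left out) and Timp1 (1.20 ± 0.41, adjusted p = 0.223, and 0.0285 without day 15 replicate 1 of that knockout), and 1 for the KAT6A knockout, Timp1 (1.14 ± 0.32, adjusted p = 0.385).

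Summed markers of mesenchyme and fibroblasts also stood higher in the knockouts at day 15, though 0 of the 18 were called by edgeR in any knockout. In that fit 376 of 20229 genes tested were called higher in the double knockout. The median log2 ratio to E14 over the 18 markers was 1.06, 0.98 and 0.59 in the double, KAT6B and KAT6A knockouts. The summed level of 18 markers, all at 1 CPM or more in at least 1 library of each genotype, was 25200 to 30470 CPM in the double knockout, 21290 to 28850 in the KAT6B knockout, 16310 to 26420 in the KAT6A knockout and 9346 to 12800 CPM in E14. The mean sum was 2.36, 2.08 and 1.81 times that of E14 in the double, KAT6B and KAT6A knockouts, while mean Ptx3 was 17.5, 6.82 and 3.81 times E14 and mean Csf1 1.96, 1.99 and 1.96 times E14. Set against the marker sum, Ptx3 was at 1.13 ± 0.355 CPM per 1000 CPM of markers in the double knockout, 0.517 ± 0.103 in the KAT6B knockout, 0.304 ± 0.139 in the KAT6A knockout and 0.157 ± 0.0282 in E14 (SD, n = 3). Ccl7 was at 0.604 ± 0.379, 0.313 ± 0.183, 0.288 ± 0.114 and 0.114 ± 0.0645 in the same order of groups. For both genes the double knockout libraries stayed above those of E14 on this scale, by 7.18 and 5.30 times in the means. Both were named in choosing the set by their high levels in these libraries, so their place here follows in part from that choice.

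Ccl2, Csf1, Cxcl1 and Timp1 were closer to E14 on that scale in the double knockout. Ccl2 was at 1.39 ± 1.22 CPM per 1000 CPM of markers in the double knockout and 0.557 ± 0.281 in E14, with 2.80 in double knockout replicate 2 and 0.701 and 0.672 in the other two libraries. Csf1 was at 4.52 ± 1.36 in the double knockout, 5.38 ± 0.548 in the KAT6B knockout, 6.14 ± 1.42 in the KAT6A knockout and 5.52 ± 0.858 in E14, and the groups overlapped. Cxcl1 was at 0.0702 ± 0.0510 in the double knockout and 0.0741 ± 0.0141 in E14, and these groups overlapped. Timp1 was at 2.88, 1.87 and 1.76 in the double knockout and 1.19, 1.75 and 1.70 in E14, so the lowest double knockout value lay just above the highest of E14. Cxcl5 and Il6 were counted at 33 reads or fewer a group. Their ratio of group means to E14 on this scale was 0.531 for Cxcl5 and 0.408 for Il6 in the double knockout, 0.314 and 0.872 in the KAT6B knockout, and 0.378 and 0.911 in the KAT6A knockout. These ratios are descriptions of day 15 libraries, and the part of mesenchyme content in the levels was not tested.

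**Figure D3:**
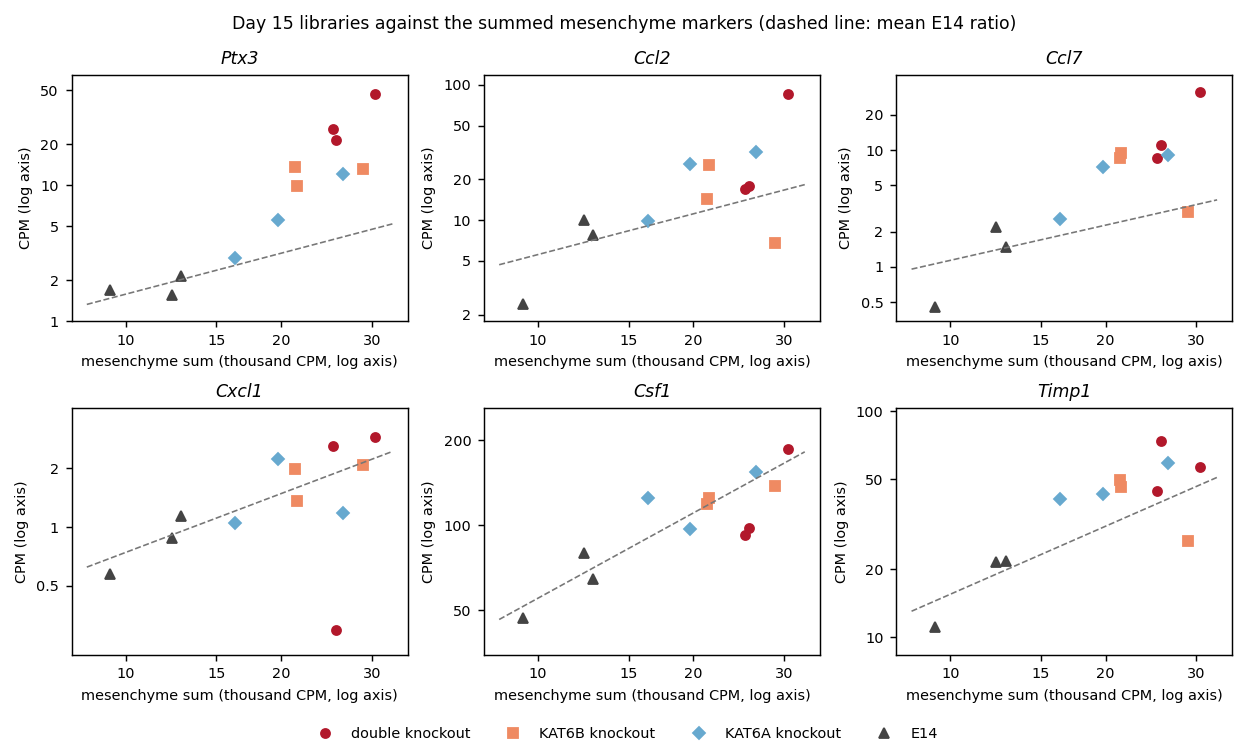
CPM of 6 genes (y axis) against the summed CPM of 18 mesenchyme markers (x axis, in units of 1000 CPM), both on log axes, in the 12 libraries of day 15, with a dashed line at the mean E14 ratio. Ptx3 in the double knockout (21.5 to 46.5 CPM) lies above the line, while Csf1 in the double knockout (92.5 to 185 CPM) lies on both sides of it.

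Neuron and astrocyte markers stood lower in the knockouts at day 15, with overlap of the KAT6A knockout and E14 for neurons. The sum of 12 neuron markers was 202 to 1280 CPM in the double knockout, 87.0 to 1370 in the KAT6B knockout, 495 to 2092 in the KAT6A knockout and 1898 to 3392 CPM in E14, and that of 9 astrocyte markers was 142 to 202, 226 to 287, 208 to 362 and 559 to 901 CPM in the same order. The sum of 8 endothelial markers was 247 to 284 CPM in the double knockout, 98.1 to 223 in the KAT6B knockout, 145 to 245 in the KAT6A knockout and 71.5 to 150 CPM in E14, with Tie1, Emcn and Cldn5 under 1 CPM in all. Over 5 of these tested, the median log2 ratio to E14 was -0.04, 0.53 and 0.35 in the double, KAT6B and KAT6A knockouts. Of 14 macrophage and microglia markers, 11 were under 1 CPM in every day 15 library of all 4 genotypes, among them Ptprc, Adgre1, Aif1, Spi1 and C1qa. The others, Csf1r, Tmem119 and Cd68, reached 1 CPM in at least 1 library of each genotype. The macrophage sum was 38.9 to 50.0 CPM in the double knockout, 35.4 to 56.6 in the KAT6B knockout, 27.1 to 47.96 in the KAT6A knockout and 14.2 to 18.9 CPM in E14. Each knockout lay above E14 in this sum without overlap. Over 5 of these markers tested, the median log2 ratio to E14 was 1.25, 0.85 and 0.54 in the double, KAT6B and KAT6A knockouts, and 0 were called by edgeR. The sum of 12 endoderm markers was 1872 to 2454 CPM in the double knockout, 540 to 2738 in the KAT6B knockout, 1274 to 2033 in the KAT6A knockout and 1043 to 1506 CPM in E14. In the endoderm sum the double knockout alone did not overlap E14. Pluripotency markers summed to 388 to 509 CPM in the double knockout, 271 to 514 in the KAT6B knockout, 248 to 530 in the KAT6A knockout and 208 to 381 CPM in E14, again without overlap of the double knockout. The median log2 ratio to E14 over these 10 markers was -1.01, -0.70 and -0.52 in the double, KAT6B and KAT6A knockouts. In the double knockout the sum and the median thus went in opposite directions. The 11 trophoblast markers summed to 482 to 870, 181 to 880, 424 to 1338 and 309 to 565 CPM in the same order, and all overlapped. The part of these markers in the levels of the 8 genes was not tested.

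The pathway lists are given for day 15 as a description, since this contrast chose the set. The median log2 ratio to E14 over 21 genes of the NF-kappaB and C/EBP pathway was 0.79 in the double knockout, 0.71 in the KAT6B knockout and 0.51 in the KAT6A knockout, beside 0.01, 0.05 and 0.01 over all genes tested. In the double knockout Bcl3 was at 20.7 ± 5.44 CPM, Relb at 29.4 ± 1.33, Nfkb2 at 58.4 ± 5.37 and Rela at 101 ± 14.4 CPM, against 6.67 ± 1.33, 12.7 ± 3.62, 30.4 ± 4.16 and 59.6 ± 3.93 CPM in E14. Among receptor genes, Il1r1, an interleukin-1 receptor, was at 27.2 ± 18.1 CPM in the double knockout and 5.22 ± 2.43 CPM in E14. Tnfrsf1a, a tumour necrosis factor receptor, was at 95.7 ± 12.0 and 31.9 ± 0.990 CPM, and Il6st, which encodes gp130, at 497 ± 72.4 and 241 ± 22.3 CPM in the same order. Over 19 TIMPs and metalloproteinases the medians were 0.97, 0.90 and 0.55. The protease gene Mmp19 was at 6.26 ± 2.47 CPM in the double knockout and 0.804 ± 0.403 CPM in E14, Adamts5 at 196 ± 161 and 39.2 ± 13.9 CPM and the membrane-anchored inhibitor Reck at 80.7 ± 14.3 and 27.2 ± 3.13 CPM. Over 13 other chemokine ligands the medians were 0.81, 0.55 and 0.68, over 7 receptors of the factors 0.92, 0.63 and 0.76, and over 14 cytokines of the IL-6 family and blood growth factors 0.93, 1.14 and 0.69. Over 9 pentraxins and PTX3 partners they were -0.28, 0.09 and -0.31. In the single knockouts 0 genes of these lists were called by edgeR at day 15.

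Per length of exons, the most abundant of the 8 RNAs in the day 15 double knockout was Timp1 at 65.7 ± 16.6 CPM per kb, followed by Ccl2 at 35.2 ± 34.4, Csf1 at 23.7 ± 9.90, Ccl7 at 21.4 ± 15.8 and Ptx3 at 11.7 ± 4.98 CPM per kb, with Cxcl1 at 1.03 ± 0.763, Cxcl5 at 0.108 ± 0.0987 and Il6 at 0.0544 ± 0.0235 CPM per kb (SD, n = 3). Without double knockout replicate 2, Ccl2 averaged 15.3 CPM per kb, below Csf1 at 18.0 CPM per kb, so the place of Ccl2 in the order rested on that library. In E14 at day 15 the order began with Timp1 at 20.4 ± 6.84 and Csf1 at 12.1 ± 3.14 CPM per kb, and Ptx3 was at 0.666 ± 0.114 CPM per kb. For Ptx3 over the 16 groups, the day 15 double knockout was above the day 15 KAT6B knockout without overlap, and all later neighbours among the 6 highest groups overlapped. For Timp1 and Csf1 the 3 day 15 knockout groups came first, overlapped one another, and did not overlap the next group.

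The genes most alike in pattern were named by Pearson correlation of log2 CPM over the 48 libraries, among 18457 genes, as a description of libraries that share the course of differentiation. Ptx3 was most like Phldb2 (r = 0.946), Tgfb1i1 (0.942) and the collagen gene Col1a1 (0.941), and Ccl2 and Ccl7 were most like each other (0.941), followed by Mob3a (0.936) and Nptn (0.935) for Ccl2 and by Ptgs2 (0.919) and Mob3a (0.913) for Ccl7. Cxcl1 was most like Ilk (0.906), Ano3 (0.899) and Zyx (0.894), Csf1 like Capn2 (0.985), Kirrel (0.973) and Axl (0.973), and Timp1 like Plec (0.946), Myo1c (0.942) and Crtap (0.941). Cxcl5 was most like Mt4 (0.746), Gm37234 (0.743) and Hs3st6 (0.732), the lowest values of the set. Il6, at 23 counts or fewer in any library, was most like Palld (0.846), Egr1 (0.841) and Runx1 (0.839).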

How the data were processed

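RNA was measured in 48 libraries of E14 mouse embryonic stem cells and knockout lines (4 genotypes, 4 days, 3 replicates). Per the labels' protocols, ribosomal RNA was depleted, libraries were strand-specific and reads were 150 bp paired ends. Per the submitters' processing notes, reads were aligned with HISAT2 to GRCm39. The authors deposited 1 table of raw counts per gene; no source used here states the HISAT2 version, counting program, strand setting or annotation release. From 36983 entries, dropping 48 repeats of an identifier left 36935 genes. Counts were fitted with edgeR 4.0.16 (R 4.3.3): expression filter with a minimum count of 10 and total of 15, TMM scaling, robust quasi-likelihood F tests, Benjamini-Hochberg adjustment over all genes tested, and calls at adjusted p under 0.05. One fit held the 12 E14 libraries, and another was made for the 12 libraries of each day. Days 0 and 15 of a single knockout and E14 gave the change of its effect. The biological coefficient of variation was 23.3% in the E14 course and 19.3%, 21.0%, 24.6% and 37.8% within the 4 days. Log2 CPM for likeness used a prior count of 2. Limits from the floor of 3 counts cover counting error only. The fits were tested on simulated data with known changes.

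The members and the pathway and marker lists were chosen with earlier results of these data known. Named genes were every member, up to 4 called genes of a pathway list in a comparison by size of change with a mean of at least 1 CPM in either group, and the 3 genes most like each member among those with at least 1 CPM in at least 3 libraries. The same naming was used for day 15 in the double knockout, whose p-values are not given. Alternatives were relative log expression size factors, no filter, at least 1 CPM in 3 libraries, DESeq2 1.42.0, the replicate number as a block, and the omission of every single library.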

Additional observations from a re-analysis of the deposited data

How the results depend on the processing

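With single libraries left out, the log2 ratio of the day 15 double knockout to E14 ran from 3.71 to 4.32 for Ptx3, 2.82 to 4.11 for Ccl7, 1.37 to 2.96 for Ccl2, 0.73 to 1.65 for Cxcl1, 0.56 to 1.15 for Csf1 and 1.43 to 1.84 for Timp1. It ran from -0.47 to 2.14 for Cxcl5 and -0.48 to 0.65 for Il6. Other scaling, filters or tools moved it less, to between 4.07 and 4.12 for Ptx3. Of 35 tests of single genes with an unadjusted p under 0.05, 0 reversed over 398 fits. In these fits 11 calls were lost and 13 gained. Only the 5, 4 and 5 tests called in E14 at days 2, 6 and 15 had a call to lose, so most of the 35 could not lose one. Fits in which a gene was no longer tested were not counted. For 68 changes of pathway genes, followed under the same settings after the data were seen, 47 kept the call in every fit, 91 of 745 fits lost it and 0 reversed.

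The number of the 8 genes called changed in these cases, whose cause was not tested unless named. DESeq2 called 1 (not 0) in the double knockout at day 0 and 1 at day 6, 4 in the KAT6B knockout at day 15 and 2 in the KAT6A knockout at day 15. With at least 1 CPM required, 3 (not 5) rose in E14 at day 15, since Ccl7 and Cxcl1 were no longer tested, 4 (not 5) fell at day 2 and 3 (not 4) at day 6. With no filter 6 (not 5) rose at day 15. With single libraries left out the count ran from 3 to 6 in E14 at day 15, 4 to 5 at day 2 and 3 to 4 at day 6, from 0 to 2 in the KAT6B knockout at day 15 and from 0 to 1 for its change between days 0 and 15, and was 0 in the other knockout comparisons tested. Over all genes, DESeq2 called 1087, 644 and 243 in the double knockout at days 0, 2 and 6 (edgeR 396, 220 and 14), 194, 23, 534 and 1720 in the KAT6B knockout at days 0, 2, 6 and 15 (edgeR 2, 0, 6 and 15), and 5, 28, 2 and 280 in the KAT6A knockout (edgeR 0, 2, 0 and 0). DESeq2 called 31 genes between the single knockouts at day 15 (edgeR 0), and 712 and 143 for the change of the KAT6B and KAT6A effects (edgeR 9 and 0). With single libraries left out, edgeR called 80 to 1942, 7 to 263 and 0 to 6 genes in the double knockout at days 0, 2 and 6, and 0 to 1164, 0 to 3, 0 to 3 and 0 to 1949 in the KAT6B knockout at days 0, 2, 6 and 15, with 1949 without its day 15 replicate 1. For the change of the KAT6B effect it called 0 to 1458.

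All 3 same-number correlations exceeded 0.1 in 4 of 29 pairs of groups (range -0.563 to 0.633), among them the double knockout and E14 at day 6 and no other comparison tested, so the numbers were not taken to pair the libraries elsewhere. With the replicate block, 2 of the genes were called in the double knockout at day 0 (Ptx3 at adjusted p = 0.0237 and Ccl7 at 0.0477) and 606 genes in all, and in the other comparisons the number of the 8 genes called did not change. Over all genes the block gave 39 in the double knockout at day 6, 26, 371 and 0 in the KAT6B knockout at days 0, 6 and 15, and 1 in the KAT6A knockout at day 2. With no filter 33, 2, 48, 4, 59 and 23 genes were called in the double knockout at day 6, the KAT6A knockout at day 0, the KAT6B knockout at days 0, 2 and 6 and the change of the KAT6B effect, and with the other size factors 2 in the KAT6B knockout at day 6 and 0 for that change. At 33 counts or fewer a group, Il6 and Cxcl5 at day 15 are limited by depth. In E14 so are Ptx3 at day 2, Ccl2 at days 2 and 6, and Ccl7 and Cxcl1 at days 0, 2 and 6. The called falls of Ptx3 at day 2 and of Ccl2 and Ccl7 at days 2 and 6 rest in part on such counts. The called rises of Ccl7 and Cxcl1 at day 15 do so too.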
